A study of Mus musculus with 2 samples.

Results

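The Clec genes encode proteins with a C-type lectin-like domain, a fold that in many members binds sugars and in others binds proteins or lipids. The family was taken by name: all genes of the deposited count table whose GRCm38 symbol begins with Clec and a digit, leaving out predicted genes and Clec1b. This gave 32 genes among the 55487 gene identifiers of the table. The rule uses names only, although the family was picked as a subject with earlier results of these data known.

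RNA sequencing was done on colonies grown from bone marrow of C57BL/6 mice. Lineage-negative cells of the femora, tibiae and pelvis carried a pMYs-IG retroviral vector for HA-tagged EVI1-WT, the wild-type form of the zinc finger transcription factor EVI1, or the same vector for HA-tagged EVI1+18, a form made by aberrant splicing. Both groups shared everything else in the labels: GFP-positive cells were sorted 3 days after infection, and 10000 of them were grown for about 3 weeks in MethoCult M3434, a semi-solid medium for myeloid and erythroid colonies. The vector carries a viral promoter, not that of a cell type, and cells without an EVI1 vector were not analysed here. Each group was 1 library of mixed colonies, with 20480447 counts for EVI1-WT and 20981903 for EVI1+18. The labels do not give the age or number of the mice. With 1 library a group there is no replicate check, and every interval below covers counting error only. Counts at Mecom, the gene of EVI1, were 3612 and 4481, and they do not separate vector from endogenous transcripts or show the splice form.

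C-type lectin receptors let macrophages, dendritic cells and granulocytes sense fungi, mycobacteria, dead cells and the state of neighbouring cells. Activating members signal through a tyrosine motif of their own or through the adaptors FcR-gamma and DAP12 to the kinase Syk and the adaptor CARD9. Inhibitory members carry a motif that recruits phosphatases such as SHP-1. In the mouse many of the genes stand side by side on chromosome 6, and 24 of the 32 members were there.

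Counts were scaled between the libraries and are given as scaled CPM, the CPM after that scaling. Of the 32 members, 16 reached 1 scaled CPM in at least 1 library and are called tested here. A gene was called 2-fold apart when the whole 95% exact counting interval of its ratio lay above 2 or below 1/2. Of the 16 tested members, 4 were called lower in EVI1+18 (Clec11a, Clec4b2, Clec2i and Clec4e), 2 were called higher (Clec9a and Clec4a1) and 10 were neither. Called members were thus 37.5% of those tested, while among all 13183 tested genes 10.1% were called, 5.05% as higher and 5.10% as lower. Both members called higher passed the filter only through EVI1+18, the library in which they were high. Clec9a had 0.0499 scaled CPM in EVI1-WT against 1.72 in EVI1+18, and Clec4a1 had 0.749 against 3.87. The median log2 ratio of EVI1+18 over EVI1-WT was -0.27 over the tested members and 0.01 over all tested genes. On this scale, which adds a prior count of 2, the members ran from -3.05 to 3.64, and the middle 50% of all tested genes from -0.32 to 0.30. The members are few and were grouped by name, so these shares describe them and are no test of the family.

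**Figure D1:**
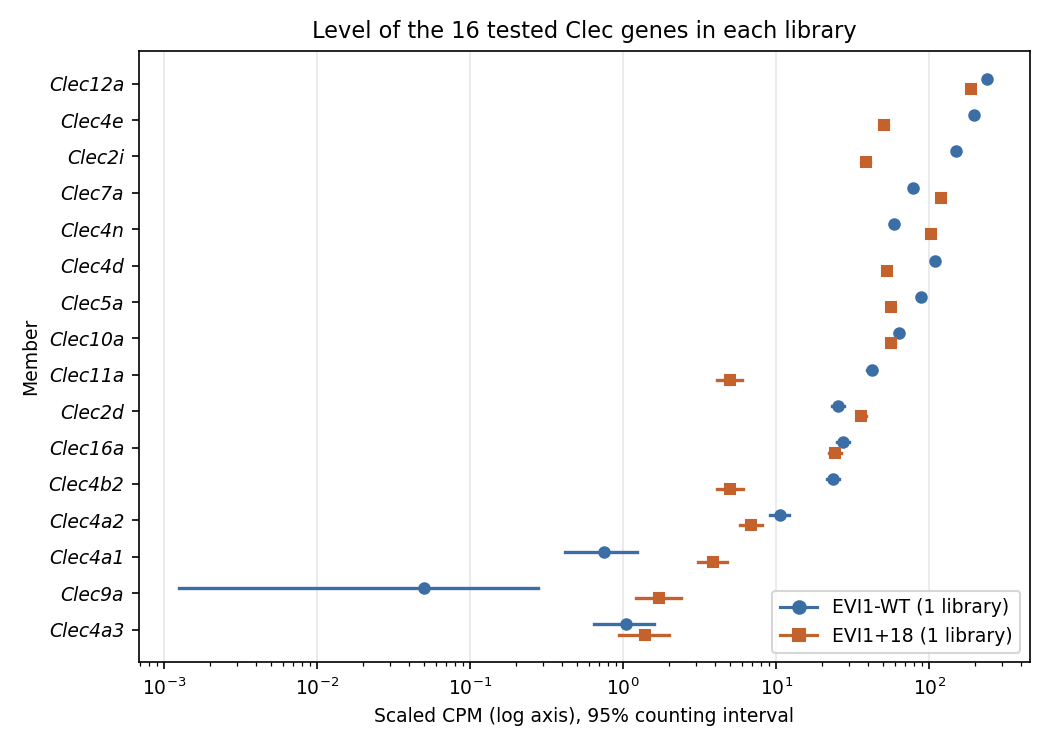
Scaled CPM (log axis) of each of the 16 tested members in the EVI1-WT library (circles) and the EVI1+18 library (squares), with 95% counting intervals as lines. Clec12a is the highest in both libraries on this scale, which is not corrected for gene length. Clec11a, Clec4b2, Clec2i and Clec4e stand clearly apart between the libraries.

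Summed over all 32 members, the counts came to 22308 in EVI1-WT against 16078 in EVI1+18, or 1114 and 749 scaled CPM. The sum was 1.49-fold lower in EVI1+18 (1.46 to 1.52). A few receptors made up most of the summed counts, which were not corrected for gene length. Clec12a, Clec4e and Clec2i held 52.5% of the family's counts in EVI1-WT, and Clec12a, Clec7a and Clec4n held 54.6% in EVI1+18. The share of Clec4e was 17.6% (exact binomial interval 17.1 to 18.1) in the first library and 6.79% (6.41 to 7.19) in the second. That of Clec7a went the other way, from 7.06% to 15.8%. In bulk colonies fewer cells that carry a receptor and less of its RNA in each cell cannot be told apart.

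The Dectin-2 group is a row of 9 receptor genes within 368 kb of chromosome 6 (GRCm38, 122921848 to 123289870), and neighbours in it went opposite ways. Clec4e (ENSMUSG00000030142, 123281789 to 123289870) encodes Mincle, which binds mycobacterial cord factor and a nuclear protein released by dying cells, and which signals through FcR-gamma. It had 3926 counts in EVI1-WT against 1092 in EVI1+18, or 196 and 50.9 scaled CPM, and was 3.85-fold lower in EVI1+18 (3.60 to 4.12). Its partner Clec4d (MCL), which forms a complex with Mincle, had 2169 and 1130 counts, or 108 and 52.7 scaled CPM. It was 2.06-fold lower (1.91 to 2.21), an interval that reaches across 2, so it was not called. Both genes of this receptor pair were thus lower, Mincle by the larger fold.

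Clec4n stood on the other side. It encodes Dectin-2, the receptor for fungal alpha-mannans, which also uses FcR-gamma. Its counts were 1175 in EVI1-WT against 2219 in EVI1+18, or 58.7 and 103 scaled CPM, a level 1.76-fold higher in EVI1+18 (1.64 to 1.89). Clec4n lies between Clec4b2 and Clec4d, both of which were lower. Clec4b2 (ENSMUSG00000067767, 123172893 to 123204671), a further receptor of the row, had 473 and 108 counts, or 23.6 and 5.03 scaled CPM, and was 4.69-fold lower (3.80 to 5.84).

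The Clec4a genes encode the DCIR receptors. Clec4a2, which carries an inhibitory motif, had 211 and 148 counts and was 1.53-fold lower (1.23 to 1.90). Of its 50-base words, 6.83% also occur in other genes, 3.85% in Clec4a4, so its counts are less certain than those of Clec4e, which shares none. Clec4a1 (ENSMUSG00000049037, 122921848 to 122934619), at the far end of the row from Clec4e, had 15 counts in EVI1-WT against 83 in EVI1+18, or 0.749 and 3.87 scaled CPM, and was 5.16-fold higher (2.96 to 9.64). Clec4a3 beside it had 21 and 30 counts, and its ratio of EVI1+18 over EVI1-WT was 1.33 (0.738 to 2.45). Clec4a4 had 1 and 2 counts and Clec4b1 had 1 and 0, at or under the 3 counts that a zero allows. In all, the row had 2 members called lower, 1 called higher, 4 tested members called neither, and 2 that were not tested.

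**Figure D2:**
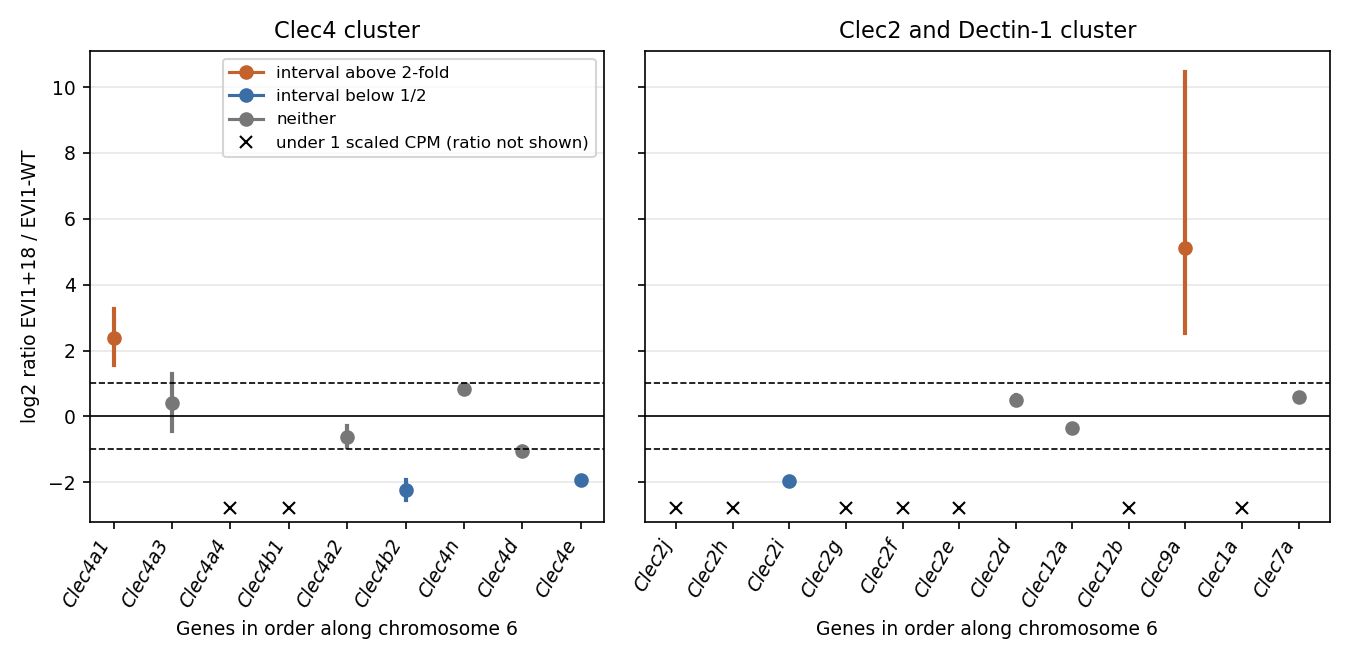
Log2 ratio of EVI1+18 over EVI1-WT for the members of the Dectin-2 (Clec4) row and of the second chromosome 6 row, in gene order and not to scale in distance, with 95% counting intervals and no prior count; crosses at the lower edge mark members under 1 scaled CPM, whose ratios are not shown. In the first row the ratio goes from above 2-fold at Clec4a1 to below 1/2 at Clec4e, with Clec4n above its neighbours on both sides.

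Upstream sequence is shown for the called members whose 250 bases before the start hold no annotated exon, because these are genes whose levels stood apart between the libraries. The sequences are from RefSeq (GRCm38.p6), on the gene's strand and 5' to 3'. Capitals mark matches, on either strand, to GAGGAA (the core of words bound by ETS factors such as PU.1), TTGCNNAA (a word of the C/EBP type) or GATAAG (a word of the GATA type).
Clec4e, chr6:123289872-123290121, minus strand: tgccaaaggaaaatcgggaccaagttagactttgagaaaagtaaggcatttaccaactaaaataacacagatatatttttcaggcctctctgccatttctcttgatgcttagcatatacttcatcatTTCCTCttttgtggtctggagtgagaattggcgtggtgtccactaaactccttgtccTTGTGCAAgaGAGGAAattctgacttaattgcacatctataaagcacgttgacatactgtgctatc
Clec11a, chr7:44306960-44307209, minus strand: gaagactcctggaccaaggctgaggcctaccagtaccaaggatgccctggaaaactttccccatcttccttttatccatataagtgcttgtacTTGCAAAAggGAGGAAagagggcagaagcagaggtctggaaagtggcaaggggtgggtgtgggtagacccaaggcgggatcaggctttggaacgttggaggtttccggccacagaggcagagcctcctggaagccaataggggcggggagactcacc
Clec2i, chr6:128887337-128887586, plus strand: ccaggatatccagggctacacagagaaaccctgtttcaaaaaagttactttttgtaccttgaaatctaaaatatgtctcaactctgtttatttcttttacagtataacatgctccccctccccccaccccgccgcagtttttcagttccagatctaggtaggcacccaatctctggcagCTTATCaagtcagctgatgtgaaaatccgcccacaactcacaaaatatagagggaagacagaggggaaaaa
Clec4a1, chr6:122921598-122921847, plus strand: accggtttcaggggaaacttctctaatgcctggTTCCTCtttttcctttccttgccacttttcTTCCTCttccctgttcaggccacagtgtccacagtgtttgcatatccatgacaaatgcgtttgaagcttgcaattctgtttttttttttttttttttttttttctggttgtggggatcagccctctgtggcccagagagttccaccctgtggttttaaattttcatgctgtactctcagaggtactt

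Upstream windows were found for 24 of the 32 members, and 14 of these members were tested. GAGGAA stood in 13 of the 24 windows and in 23.1% of all 27025 promoters searched, and TTGCNNAA stood in 4 and in 9.55%. GATAAG was found in 1 member window, that of Clec2i, where it lies on the opposite strand, and in 6.60% of all promoters. The longer ETS word GAGGAAGT was in 0 member windows and in 2.44% of all promoters, and it contains GAGGAA. A pair of longer words known for the first zinc finger domain of EVI1 were also in 0 member windows, and in 0.0555% and 0.0370% of all promoters. The rarer of them contains GATAAG. The ETS core and the C/EBP-type word were searched after the other words had given 1 match. In the Clec4e and Clec11a windows printed above, a C/EBP-type word, a spacer of 2 bases and GAGGAA follow each other in the same order and spacing. This arrangement (TTGCNNAA in either orientation, any 2 bases, then GAGGAA, both strands searched) was found in 3 promoters of 27025, or 0.0111%, these 2 among them. It was defined from the sequences of these 2 members, so the share describes how rare the letters are and tests nothing, and no binding was measured.

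The second row on chromosome 6 (128652416 to 129472779) holds 12 members, the Clec2 genes other than Clec2l and the Dectin-1 group, of which 5 were tested. Clec7a encodes Dectin-1, the receptor for fungal beta-glucan, which carries its own tyrosine motif and signals through Syk. It had 1575 counts in EVI1-WT against 2543 in EVI1+18, or 78.6 and 119 scaled CPM, and was 1.51-fold higher (1.41 to 1.61). GENCODE M21 lists it as a polymorphic pseudogene. Clec12a encodes MICL, an inhibitory receptor for urate crystals and dead cells. It had 4803 and 4016 counts, or 239.8 and 187 scaled CPM, and was 1.28-fold lower (1.23 to 1.34). Neither of these abundant receptors was 2-fold apart.

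Clec9a (ENSMUSG00000046080, 129408862 to 129424763) encodes DNGR-1, the receptor of type 1 dendritic cells for actin filaments exposed by dead cells. Its reads numbered 1 for EVI1-WT and 37 for EVI1+18, or 0.0499 and 1.72 scaled CPM. The level was 34.5-fold higher in EVI1+18, and the interval, 5.83 to 1400, was the widest of the tested members. A pair of annotated genes meets here. Clec9a begins inside Clec1b on the same strand, 184 exon bases (5.59% of those of Clec9a) belong to both, and the whole window upstream of Clec9a is Clec1b exon. Clec1b, a platelet receptor, had 14 counts in EVI1-WT against 161 in EVI1+18. The table gives no read positions, and the part of Clec1b transcripts in the Clec9a counts was not tested. Of 10 other type 1 dendritic cell markers 9 had counts in EVI1-WT and all 10 in EVI1+18. Their summed level was 335 and 211 scaled CPM, most of it from Wdfy4 (294 and 172), and 41.0 and 39.7 without it. Of 5 tested, Irf8 was called higher, at 5.20-fold (3.70 to 7.48), and Itgae lower, at 4.44-fold (3.70 to 5.37). Naaa and Batf3 were 2.32-fold and 2.61-fold higher and Wdfy4 1.71-fold lower, none of them called. Among untested markers, the defining receptor Xcr1 had 7 counts in EVI1-WT against 1 in EVI1+18 and Flt3 had 5 and 5. Zbtb46 had 2 and 21, Cadm1 0 and 17, and Tlr3 3 and 8. Clec12b, an inhibitory receptor, had 1 and 7 counts and Clec1a had 1 and 1.

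Clec2 proteins are ligands of NK cell receptors of the NKR-P1 family, and the pair that was expressed went in opposite directions. Clec2i (ENSMUSG00000030365, 128887588 to 128898167) encodes Clr-g, a ligand of NKR-P1F. It had 2988 counts in EVI1-WT against 824 in EVI1+18, or 149 and 38.4 scaled CPM. The level was 3.89-fold lower in EVI1+18 (3.60 to 4.20). Of its 50-base words 4.13% occur in other genes, and BC035044 overlaps its span on the opposite strand without sharing exon bases. Clec2d (Clr-b), a ligand of the inhibitory receptor NKR-P1B that is found on most blood cells, had 511 and 774 counts, or 25.5 and 36.1 scaled CPM. It was 1.41-fold higher (1.26 to 1.58).

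The receptors of these ligands were measured too. Klrb1f, which encodes NKR-P1F, had 498 and 308 counts, or 24.9 and 14.4 scaled CPM, and was 1.73-fold lower in EVI1+18, with an interval that came up to 2. Klrb1b, which encodes NKR-P1B, had 14 counts in EVI1-WT against 1 in EVI1+18 and was under 1 scaled CPM. The 8 NK cell markers summed to 42.7 and 29.4 scaled CPM, with Ncr1, Klra8 and Prf1 at 0 in both libraries. The other Clec2 genes were at or near 0, with 5 and 1 counts for the pseudogene Clec2f, 1 and 4 for Clec2g, 0 and 1 for Clec2l, and none for Clec2e, Clec2h or the pseudogene Clec2j.

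Of the secreted members, Clec11a was the only one tested, and its fold was the largest in the downward direction among the tested members. It encodes a growth factor for haematopoietic progenitors and bone-forming cells, known as SCGF or osteolectin (ENSMUSG00000004473, chromosome 7, 44302687 to 44306902). Its counts were 842 in EVI1-WT against 107 in EVI1+18, or 42.0 and 4.99 scaled CPM. The level was 8.43-fold lower in EVI1+18 (6.89 to 10.4), and 1.27% of all tested genes had a lower ratio. It shared no 50-base word with another gene. Itga11 and Itga10, which encode integrin chains that bind it, had 2 and 0 and 20 and 14 counts. The tetranectin gene Clec3b had 6 and 5 counts, and Clec3a and Clec18a had none in either library.

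**Figure D3:**
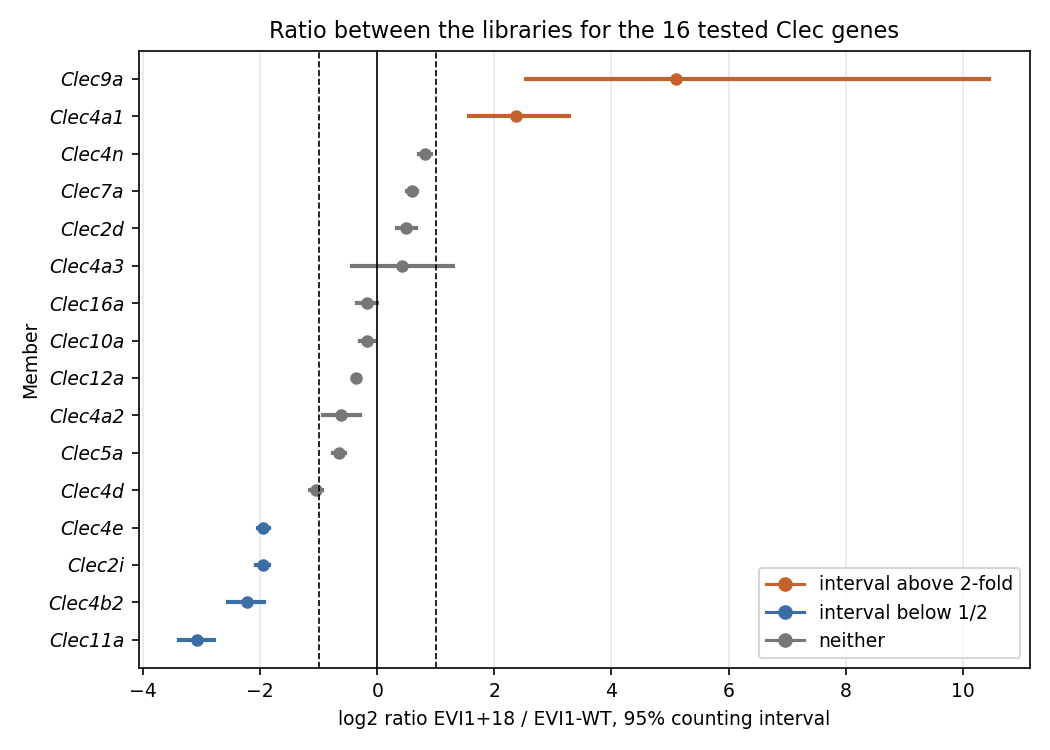
Log2 ratio of EVI1+18 over EVI1-WT for the 16 tested members, ordered by ratio without a prior count, with 95% counting intervals and dashed lines at 2-fold. The intervals of Clec11a, Clec4b2, Clec2i and Clec4e lie below 1/2 and those of Clec4a1 and Clec9a above 2, while Clec4d reaches across the lower line.

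The remaining tested members were closer. Clec5a (MDL-1), a myeloid receptor that signals through DAP12, had 1759 and 1200 counts, or 87.8 and 55.9 scaled CPM, and was 1.57-fold lower in EVI1+18 (1.46 to 1.69). Clec10a (MGL1), a macrophage receptor for galactose and N-acetylgalactosamine, had 1275 and 1208 counts and was 1.13-fold lower (1.04 to 1.22). Its neighbour Mgl2, which holds 8.49% of the 50-base words of Clec10a, was 3.14-fold lower (2.99 to 3.30) at 6320 and 2158 counts. The related pair thus differed in size of fold. Clec16a, an intracellular protein of endosomes and mitophagy despite its name, had 548 and 521 counts, and was 1.13-fold lower with an interval of 0.998 to 1.27 that includes 1.

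Members known from the liver and from endothelium were absent or rare. Clec4f, the Kupffer cell receptor, and Clec14a of endothelial cells had 0 counts in both libraries, which allows up to 0.150 scaled CPM for EVI1-WT and 0.140 for EVI1+18. Clec4g (LSECtin), of sinusoidal endothelium, had 0 counts in EVI1-WT against 17 in EVI1+18. Against a floor of 3 counts in the first library it was 5.29-fold higher. The exact counting interval of the ratio at 0 and 17 counts began at 3.85-fold. At 0.792 scaled CPM in EVI1+18 it was not tested. Its exons overlap an antisense gene over 146 bases, which had 0 and 1 counts. The 8 endothelial markers summed to 438 and 284 scaled CPM, of which Pecam1 gave 427 and 268. Without Pecam1 the sum was 10.9 and 16.5, so its direction turned. Tie1 was called higher, at 79 and 239 counts (2.82-fold, 2.18 to 3.69), and Egfl7 had 133 and 112. The defining genes Cdh5, Kdr and Tek had at most 2 counts in either library. Altogether 7 members had no count in either library and 9 more stayed under 1 scaled CPM.

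Levels of different genes were compared per kilobase of exon, within each library. In EVI1-WT the order began with Clec4d at 67.7 scaled CPM per kb (64.9 to 70.6) and Clec2i at 48.0 (46.3 to 49.7). Clec12a, Clec4n and Clec4e followed at 43.4, 41.3 and 39.5, and neighbours among these 3 did not differ beyond counting error. In EVI1+18 Clec4n came first at 72.8 (69.8 to 75.9) and Clec7a second at 44.9 (43.2 to 46.7). Clec12a and Clec4d, at 33.9 and 32.9, had intervals that overlapped. Clec2i and Clec4e were ranked eighth and ninth there, at 12.3 and 10.3. Taking the longest transcript as the length put Clec12a second in both libraries and left Clec4d and Clec4n first.

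**Figure D4:**
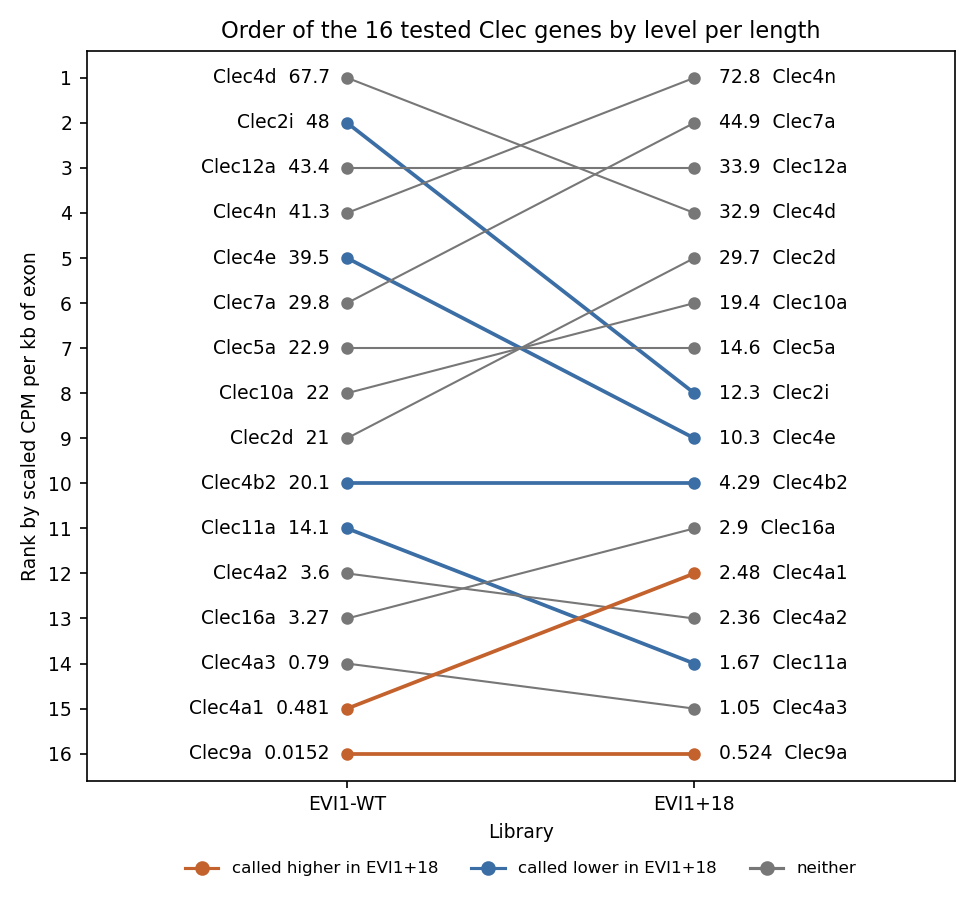
Rank of the 16 tested members by scaled CPM per kb of exon in EVI1-WT (left) and EVI1+18 (right), with the level beside each name and lines joining the same gene. Clec4n and Clec7a stand first and second in EVI1+18, and Clec2i and Clec4e stand eighth and ninth there.

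Within a library the proportion of receptors with like functions does not depend on the scaling. Dectin-2 and Mincle, which share FcR-gamma, stood at a per-length ratio of Clec4n to Clec4e of 1.05 (0.980 to 1.12) in EVI1-WT and 7.11 (6.61 to 7.65) in EVI1+18. Clec7a to Clec4e was 0.755 (0.712 to 0.801) and 4.38 (4.08 to 4.71). Dectin-2 and Dectin-1 thus stood level with or under Mincle in the first library and above it in the second. Clec4d to Clec4e was 1.72 (1.63 to 1.81) and 3.21 (2.95 to 3.49). For the NKR-P1 ligands, Clec2i to Clec2d was 2.28 (2.08 to 2.51) in EVI1-WT and 0.415 (0.376 to 0.459) in EVI1+18, so the order of the pair was opposite. These pairs were picked after the values had been seen.

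The signalling machinery that the receptors share was mostly less than 2-fold apart. All 32 listed partners were tested, 1 was called higher and 3 were called lower, a share near that of all tested genes, and their median log2 ratio was -0.12. Syk had 3839 and 3891 counts and was 1.06-fold lower in EVI1+18 (1.01 to 1.11). Card9 had 2245 and 2453 counts, and was 1.02-fold higher with an interval of 0.963 to 1.08 that includes 1. The adaptor of Mincle and Dectin-2, Fcer1g, was 1.55-fold lower (1.49 to 1.62) at 5360 and 3693 counts, and the DAP12 gene Tyrobp was 1.89-fold lower (1.83 to 1.95) at 9078 and 5149. Both adaptors were thus lower, although short of the rule.

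The called partners were a kinase and factors further down the pathway. The tyrosine kinase Src had 70 and 741 counts and was 9.88-fold higher (7.73 to 12.8). Egr3 and Nfatc2, transcription factors of calcium signalling, were 5.04-fold (4.26 to 5.99) and 3.26-fold lower (2.80 to 3.79). Map3k14, the kinase of the non-canonical NF-kappaB pathway, was 2.67-fold lower (2.07 to 3.48), and with scaling by total counts it was 2.56-fold lower (1.98 to 3.33) and not called.

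**Figure D5:**
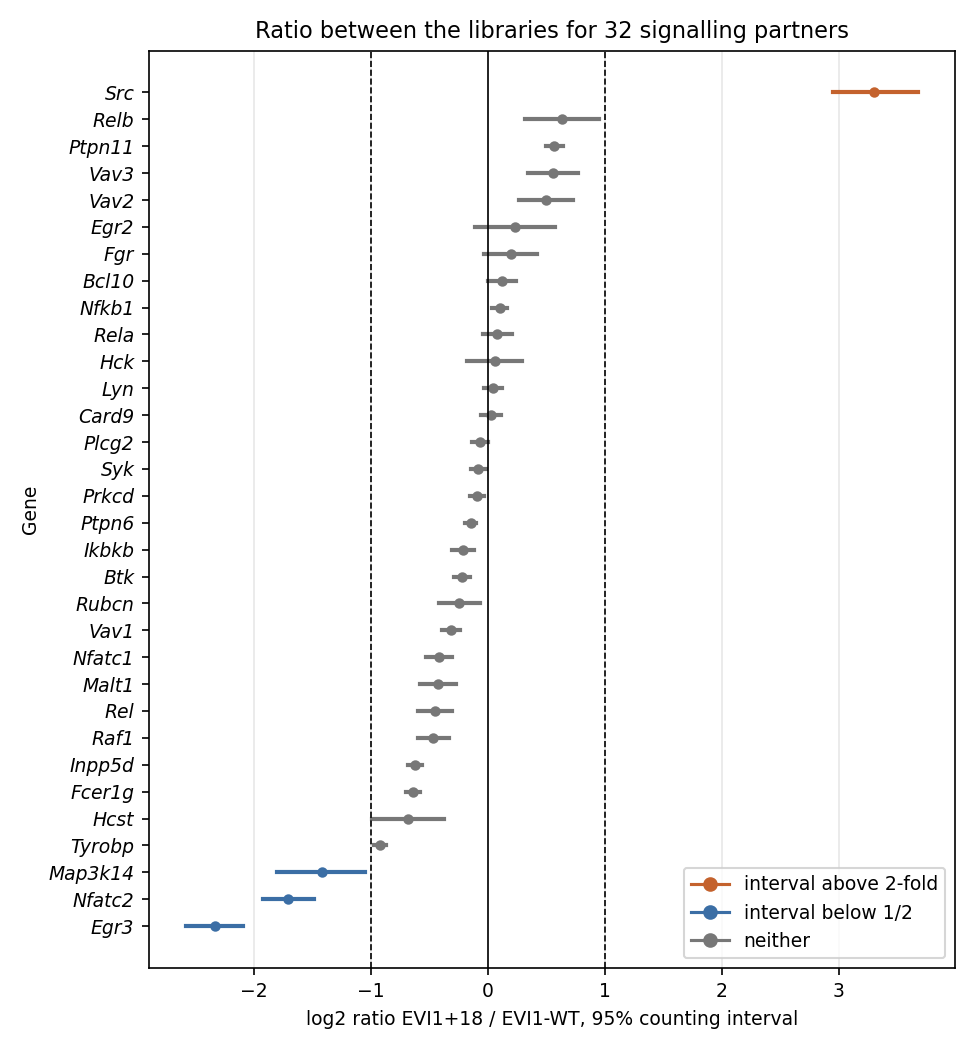
Log2 ratio of EVI1+18 over EVI1-WT for the 32 signalling partners, ordered by ratio, with 95% counting intervals and dashed lines at 2-fold. Src lies above 2-fold, Egr3, Nfatc2 and Map3k14 lie below 1/2, and Syk and Card9 lie near 0.

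Among 43 genes of other C-type lectin-domain proteins, 16 were tested. Of these 3 were called higher and 5 lower, or 8 of the 16, against 10.1% called among all tested genes, and the median of their log2 ratios was -0.80. The mannose receptor Mrc1 was 2.91-fold higher (2.72 to 3.12) at 1088 and 3394 counts. P-selectin, Selp, had 4 and 159 counts and was 37.1-fold higher (14.2 to 138). Lower were the eosinophil granule genes Prg2 and Prg3, at 4.63-fold and 4.28-fold, Mgl2, Cd69 at 2.53-fold, and Cd93 at 2.81-fold (2.71 to 2.93). The lectin fold was thus found on both sides of equality outside the Clec genes as well.

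Marker genes of the cells that could carry these receptors differed between the libraries. The 11 neutrophil markers all had counts in both libraries and summed to 2907 scaled CPM in EVI1-WT against 990.1 in EVI1+18, with 6 of 10 tested called lower. The 12 markers of mast cells and basophils, all with counts in both, summed to 5618 and 841, with 7 of 11 tested called lower and 2 higher. Eosinophil markers summed to 866 and 176, with 5 of 6 tested called lower. Siglecf was called higher, at 114 and 517 counts (4.23-fold, 3.45 to 5.23), and Ear1 had 1 and 0. These sums were lower in the same library as the members called lower (Clec4e, Clec4b2, Clec2i and Clec11a), and their part in those results was not tested.

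The 14 macrophage markers summed to 811 and 1726, of which Gpnmb alone gave 242 and 1214. Without Gpnmb the sum was 569 and 512, so its direction turned. In that list 4 of 7 tested genes were called higher and Adgre1 lower, and the defining C1qa and Vsig4 were at 0 in both libraries. The 8 monocyte markers summed to 551 and 169, of which Ly6c2 gave 463 and 101, and to 88.5 and 67.9 without it. Of 7 tested, Ly6c2 was called lower and 6 were neither. Among those 6, Cx3cr1, S100a4 and F13a1 were higher and Ccr2, Vcan and Ms4a6c lower. Fn1 had 0 and 4 counts. Type 2 dendritic cell markers summed to 432 and 253, with Cd209a at 0 in both, and to 116 and 153 without Mgl2. Plasmacytoid markers summed to 136 and 111, with Siglech at 0 and 2 counts, and to 7.79 and 22.7 without Bst2. Both of these lists thus also turned with 1 gene. Megakaryocyte and platelet markers summed to 571 and 1461 and erythroid markers, of which 10 of 11 symbols matched, to 1750 and 13308, and both stayed higher in EVI1+18 without their leading gene. The members called higher (Clec4a1 and Clec9a) were higher in the same library as these 2 sums, and the part of any of these cells was not tested. T cell, B cell and marrow stromal markers summed to 5.49, 3.45 and 4.79 scaled CPM in EVI1-WT and to 1.91, 2.66 and 1.35 in EVI1+18, with Cd4, Cd8a, Pax5 and Col1a2 at 0 in both. Without Cd79b the B cell sum was 0.200 and 0.559, so its direction turned as well. Of the stromal sum, Pdgfrb gave 3.99 and 0.886.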

How the data were processed

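RNA was sequenced from 2 libraries, 1 per vector. The values are raw counts per Ensembl gene, which the authors deposited without normalization. The tools listed in the submitters' processing notes are featureCounts, from Subread, HISAT2 2.2.1, edgeR and SAMtools, and the build is GRCm38. Settings for strand, reads with several matches and annotation version were not given in the sources used here. Of 55487 identifiers 55141 matched GENCODE M21 on GRCm38, which gave symbols, coordinates and exon lengths.

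Libraries were scaled with edgeR 4.0.16 (TMM, R 4.3.3). Ratios have 95% exact (Clopper-Pearson) intervals and levels exact Poisson intervals, from scipy 1.17.1. Without molecular identifiers, reads are not independent molecules, so intervals and floors (3 counts) cover counting error only and compare the libraries, not the vectors. With no residual degrees of freedom, no test over replicates was run. Log2 ratios used a prior count of 2. Folds are ratios of scaled CPM without it. The interval rule was run on simulated counts that held counting error only, the error its intervals assume. That run therefore tests nothing about variation between libraries. Shared sequence is the share of 50-base words of a gene's transcripts found in other genes. Tested members, partners called beyond 2-fold (at most 4 a direction and list) and Fcer1g, Tyrobp, Syk and Card9 were named. The Klrb1, integrin and some marker genes were named after their values were seen. The members and lists were chosen with earlier results of these data known. Marker sums without their leading gene were added after seeing the data. Alternatives were the scaling (DESeq2 1.42.0 size factors, totals, upper quartile), filter, fold threshold, prior count and length. Protein sequences were not used here, and 2 listed genes are not reported here by name. The table had 0 unmapped value columns.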

Additional observations from a re-analysis of the deposited data

How the results depend on the processing

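Under the 3 other scalings, the settings in which a ratio can move, 0 of 48 ratios of the 16 tested members changed direction. A scaling moves all ratios by the same factor, and the factors here were close. The ratio nearest 1, that of Clec16a, was 0.887 and reached 0.928 with total counts. No reversal could thus occur, and the 0 is no support for the directions. Thresholds change calls only, and filters change only which members are tested. The filter at 5 scaled CPM dropped Clec4a1, Clec4a3 and Clec9a. Of 109 ratios with a call under an alternative 106 kept their call, 2 gained one and 1 lost it. This tally includes both filter settings, in which the call of a kept member cannot change, and leaves out the dropped members. It therefore overstates how far the calls were tried. At an interval beyond 1.5, Clec4n (ratio of EVI1+18 over EVI1-WT 1.76) and Clec4d (0.486) were called as well, and at an interval beyond 3 Clec4a1 (5.16) was not. Under DESeq2 size factors, total counts and upper quartile scaling, the 4 lower and 2 higher member calls stood at the same numbers, while total counts left 2 lower signalling partners, without Map3k14. A filter at 5 scaled CPM left 0 higher members, since both lie under it, and moved the median log2 ratio to -0.60, with 431 higher genes in all. With no filter the median was -0.17, and Clec4g was called higher too. The medians of the tested members' lower and upper interval bounds, on the log2 scale without the prior count, were -0.43 and -0.18. They are not an interval of the median of -0.27. An interval beyond 3 gave 1 higher member, 401 higher and 344 lower genes in all, 1 lower signalling partner, and 1 higher and 2 lower other lectins. An interval beyond 1.5 gave 1093 higher and 1290 lower genes. With the longest transcript as length, 10 of 16 members kept their rank in EVI1-WT. No paired analysis was possible because each group had 1 library. Depth limits the 16 untested members and Clec9a, whose lower level rests on 1 count.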

Other observations

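The first chromosome 6 row held no other tested gene with an established symbol. The second held 5, which were picked by position after the members' values had been seen. The transcribed pseudogene BC064078 lies between Clec2g and Clec2f and had 460 counts in EVI1-WT against 41 in EVI1+18. The fold, 12.0 (8.72 to 17.0), was on the lower side in EVI1+18. Other genes hold 0.340% of its 50-base words, and no Clec gene is among them. Cd69, which encodes an early activation antigen with a lectin-like domain and lies between Clec2d and Clec12a, had 1714 and 727 counts and was 2.53-fold lower (2.31 to 2.76). Klrb1f was 1.73-fold lower. BC035044, which overlaps Clec2i on the opposite strand, had 519 and 552 counts, and was 1.01-fold lower with an interval of 0.892 to 1.14 that includes 1. Clec1b was 10.7-fold higher (6.21 to 20.1). By position the genes called lower (Clec2i, BC064078 and Cd69) all came before those called higher, Clec1b and Clec9a, which share exon bases. Genes called neither lay among and around them, and the span gave no single direction.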
